A study of Oryza sativa Japonica Group with 6 samples.

Results

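MYB transcription factors were followed in leaves of rice seedlings (Oryza sativa, Japonica group) that overexpress another regulator, the WRKY transcription factor OsWRKY65. They were taken as the genes whose annotation contains MYB as a word or at the start of a word, with at least 10 reads in 3 or more of the 6 libraries. Annotations naming a homeobox or a response regulator were to be left out, and none of the matching ones did so. The text matched 154 genes, of which 105 reached the read minimum, out of 37863 genes in the table. Of the other 49, 36 had no read in any library and 12 had 10 reads or more in only 1 or 2 libraries.

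The polyA RNA came from 14-day-old seedlings grown in MS medium under long days. The OsWRKY65-2 group is labelled as an overexpression genotype and has 3 libraries, and the wild type (WT) group has 3, numbered below by replicate. The labels do not name the promoter that drives the transgene, and OsWRKY65-2 is a single line. They do not say whether libraries of a group came from separate plants, and a p-value here reflects variation among libraries that may be technical. In leaf RNA, fewer cells of a type and less RNA per cell cannot be told apart.

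MYB proteins bind DNA through MYB repeats, each a helix bundle resembling the SANT domain of chromatin proteins. In plants the R2R3 class, with a pair of repeats, is the largest, and its members control phenylpropanoid and anthocyanin synthesis, secondary cell walls, cell shape and responses to stress. Single-repeat proteins include the telomere-binding and SHAQKYF classes, the MYB-CC class includes regulators of phosphate starvation, and the 3R class is related to animal c-MYB and acts in the cell cycle. By annotation, 24 of the 105 members were R2R3 proteins, 15 were SANT or single MYB proteins, 7 were SHAQKYF proteins, 4 were 3R or c-MYB-like, 1 was MYB-CC, and 54 carried no class word.

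Total counts ranged from 20585288 to 28361580 in OsWRKY65-2 and from 22618996 to 29720852 in WT. Os12g0116800, the gene whose older locus name is that of OsWRKY65 from general knowledge, had 1326, 1186 and 19440 reads in OsWRKY65-2 libraries 1, 2 and 3, against 104, 0 and 0 in WT libraries 1, 2 and 3. OsWRKY65-2 library 3, with the most of these reads, stood apart from the other libraries among the MYB members too. It had 26 of the 105 members at 0, against 7 in each of the other OsWRKY65-2 libraries and 1 to 6 in WT. Across the 105 members its log2 CPM (read counts scaled to a library of 1000000) correlated with the other 5 libraries at r = 0.345 to 0.564, while the remaining pairs lay between 0.628 and 0.930. The whole table showed the same. Across all tested genes library 3 correlated with the others at r = 0.603 to 0.695, and the remaining pairs lay between 0.856 and 0.926. It had a count for 20893 genes, against 24091 to 27129 in the other libraries. Markers of leaf mesophyll were high in all libraries but differed between the groups. The 5 Rubisco small subunits summed to between 16863 and 18808 TPM in OsWRKY65-2, against 9494 to 15227 TPM in WT. For 17 chlorophyll a/b binding proteins the sum was between 20821 and 23038 TPM in OsWRKY65-2, against 12960 to 19011 TPM in WT. Of these, 12 were tested, 10 had a positive log2 fold change and 0 were called. The 10 knotted1-type genes, taken by annotation as markers of shoot meristem, summed to 58.2 to 128 TPM in OsWRKY65-2, against 67.0 to 79.5 TPM in WT. Of these, 6 were tested. The highest sum, in OsWRKY65-2 library 3, did not reflect most of them. There Os08g0292900 had 110 CPM and the other tested ones were at 0. Its annotation names no meristem, and at 37.4 to 110 CPM it was the highest of the tested ones in every library. The sum is therefore no clear measure of meristem. Medians of log2 CPM minus the WT mean over the 6 were 3.67, 2.97 and -1.77 in OsWRKY65-2 libraries 1 to 3. In WT libraries 1 to 3 they were -1.05, 2.74 and -1.52. The part of these cell types in the results on members was not tested. The root marker Os02g0662000 had 19, 28 and 0 reads in OsWRKY65-2, against 4, 0 and 0 in WT. Because library 3 stands apart, results that rest on it are given with and without it.

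No MYB gene passed edgeR's quasi-likelihood test at an adjusted p under 0.05 in either direction, and the same held for the whole table, with 0% of 23769 tested genes called higher and 0% lower. The smallest adjusted p of a member was 0.763. At an unadjusted p under 0.05, 9 members were higher in OsWRKY65-2 (8.57%, against 4.25% of all tested genes) and 3 were lower (2.86%, against 2.26%). Among those 9 were Os08g0496700, Os01g0663051, Os05g0567600 and Os05g0208600, which the read minimum favoured, as described below. The share of higher members is therefore only a description. Without OsWRKY65-2 library 3 edgeR called 0 members, beside 0.0527% of 24677 genes called higher and 0.0243% called lower, and the smallest adjusted p of a member was 0.144. At an unadjusted p under 0.05, 9 members were then higher, beside 5.18% of all tested genes, and 15 were lower, beside 5.41%. The 9 again included these genes. The 15 included Os11g0106100 and Os02g0618400, which reached the read minimum in every WT library and only in library 3 of OsWRKY65-2. DESeq2 called 7 members higher and 1 lower on all 6 libraries, beside 1.76% and 1.27% of all tested genes. With DESeq2's own filter 6 members were higher and 0 lower, beside 0.613% and 0.356% of 29518 genes, and without OsWRKY65-2 library 3 it called 4 members higher and 6 lower, beside 1.11% and 1.73%. Calls therefore depended on the tool. Genes favoured by the read minimum were among the members that DESeq2 called in each of these fits. On counts simulated from these libraries, the share of false calls by DESeq2 was well above the threshold and above that by edgeR. Without OsWRKY65-2 library 3 the share by edgeR was above the threshold too. The simulation used the spread per gene that edgeR estimated and set no library apart, so it cannot decide between the tools on these data.

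**Figure D1:**
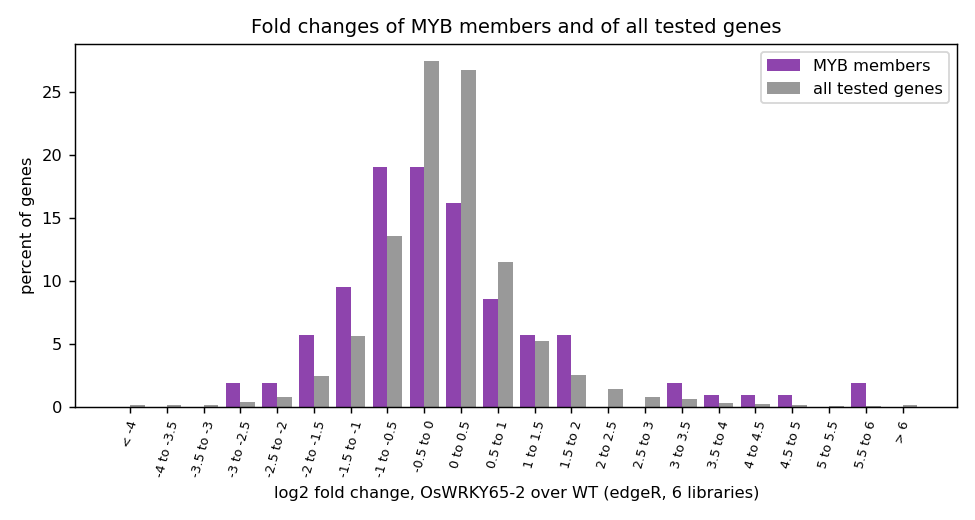
Share of genes (percent, y axis) in each range of log2 fold change, OsWRKY65-2 over WT by edgeR on 6 libraries (x axis), for the 105 MYB members and for all 23769 tested genes. Members were spread more widely than all genes, with more of them at values below -0.5 and a small separate group above 3. That group included genes favoured by the read minimum.

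Somewhat more members had negative than positive fold changes. Of the 105 members, 45 (42.9%) had a log2 fold change above 0, against 49.5% of all tested genes, and their median was -0.19, against -0.01 for all tested genes. On the log2 scale 66 members (62.9%) stayed within 1 of 0, against 79.3% of all tested genes. All 3 OsWRKY65-2 libraries lay above all 3 WT libraries in CPM for 9 members (8.57%, against 7.16% of all tested genes), and below them for 17 (16.2%, against 10.5%). Genes favoured by the read minimum were among the 9 and among the 17. Of those 17, 8 were at 0 in OsWRKY65-2 library 3. Zeros there were not particular to members: 2444 genes of the whole table were at 0 in it with a median over 50 reads elsewhere. The other libraries had 28 to 198 such genes. With that library left out, 14 members (13.3%, against 14.5% of all tested genes) lay above WT and 27 (25.7%, against 13.9%) below it. The median was then -0.23, and 44 members had a log2 fold change above 0, beside 51.6% of all tested genes.

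**Figure D2:**
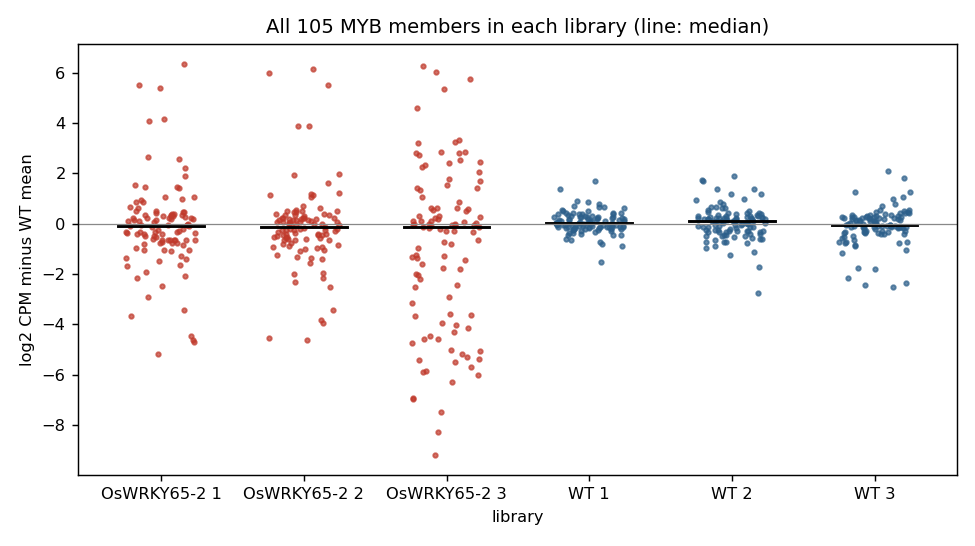
Each point is 1 of the 105 MYB members, as its log2 CPM minus its mean in WT (y axis), in each of the 6 libraries (x axis), with the median of the members as a line. The medians lie between -0.13 and 0.10 in every library, while the members spread furthest in OsWRKY65-2 library 3, in both directions.

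The medians of log2 CPM minus the WT mean over the members were -0.11, -0.13 and -0.13 in OsWRKY65-2 libraries 1 to 3, against 0.01, 0.10 and -0.04 in WT libraries 1 to 3. Their summed level per length was 1247, 1336 and 1512 TPM in OsWRKY65-2, against 1618, 1618 and 1471 TPM in WT, so that the groups overlapped. OsWRKY65-2 library 3 was the highest of the 6 libraries for 26 members and the lowest for 39. The shares over all tested genes were not computed, so these counts are not a result about members. The classes differed in their medians, which are descriptions with no test: -0.36 for the 24 R2R3 proteins, of which 6 had a positive log2 fold change, and 0.07 for the 15 SANT or single MYB proteins, of which 9 did. The 54 members without a class word had a median of -0.39. Without OsWRKY65-2 library 3 the medians were -0.66 for R2R3 proteins, 0.02 for SANT or single MYB proteins and -0.23 for members without a class word.

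5 genes of SANT or Myb/SANT-like annotation were nearly silent in WT and read in every OsWRKY65-2 library. Os08g0496700 reached the read minimum only through the OsWRKY65-2 libraries, and Os01g0663051, Os05g0567600 and Os05g0208600 were below it in 2 WT libraries, so the choice of members favoured genes that are higher in OsWRKY65-2 and their values are given as a description. Nothing in their annotation gives them a process, and SANT-type domains are known from chromatin proteins as well as from transcription factors. Os01g0663051 had 12.4, 10.7 and 9.79 CPM in OsWRKY65-2, against 0, 0 and 0.447 CPM in WT. All its OsWRKY65-2 libraries were at a similar level and library 3 did not stand out, and the log2 fold change was 5.60 ± 1.46 (SE, n = 3 each). Os05g0567600, which carries the same annotation, had 10.96, 16.8 and 6.36 CPM in OsWRKY65-2, against 0.120, 0 and 1.06 CPM in WT. Its lowest OsWRKY65-2 library was well above the highest WT library, and the log2 fold change was 4.61 ± 1.45.

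Os08g0496700, a Myb/SANT-like protein, had 4.61, 4.53 and 5.40 CPM in OsWRKY65-2, against 0.0801, 0 and 0 CPM in WT. These are 316 reads in OsWRKY65-2 against 2 in WT. The next pair of Myb/SANT-like genes were less even. Os05g0208600 had 6.76, 5.67 and 2.62 CPM in OsWRKY65-2, against 0.240, 0.153 and 0.691 CPM in WT. Os03g0141100 had 9.33, 8.10 and 2.62 CPM in OsWRKY65-2, against 0.480, 0.153 and 1.26 CPM in WT. In both genes OsWRKY65-2 library 3 was the lowest of its group and still above every WT library, with log2 fold changes of 3.53 ± 0.84 and 3.25 ± 0.94.

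None of the 5 passed edgeR's test, which gave each an adjusted p of 0.763, and the exact two-sided permutation p was 0.1, the smallest that 3 libraries against 3 allow. With every OsWRKY65-2 library above every WT library that permutation p was fixed in advance, so it adds no support. Tests on Os08g0496700, Os01g0663051, Os05g0567600 and Os05g0208600 are given only as a description, since the read minimum favoured such genes. DESeq2 called all 5 on the 6 libraries, but without OsWRKY65-2 library 3 it did not call Os01g0663051. For Os03g0141100, which had 10 reads or more in 2 of the WT libraries, DESeq2 gave an adjusted p of 0.00787 on the 6 libraries. Without OsWRKY65-2 library 3 the log2 fold changes were 5.72 for Os01g0663051, 5.49 for Os08g0496700, 4.93 for Os05g0567600, 3.85 for Os05g0208600 and 3.65 for Os03g0141100. The read counts do not tell near-identical copies of such genes apart.

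**Figure D3:**
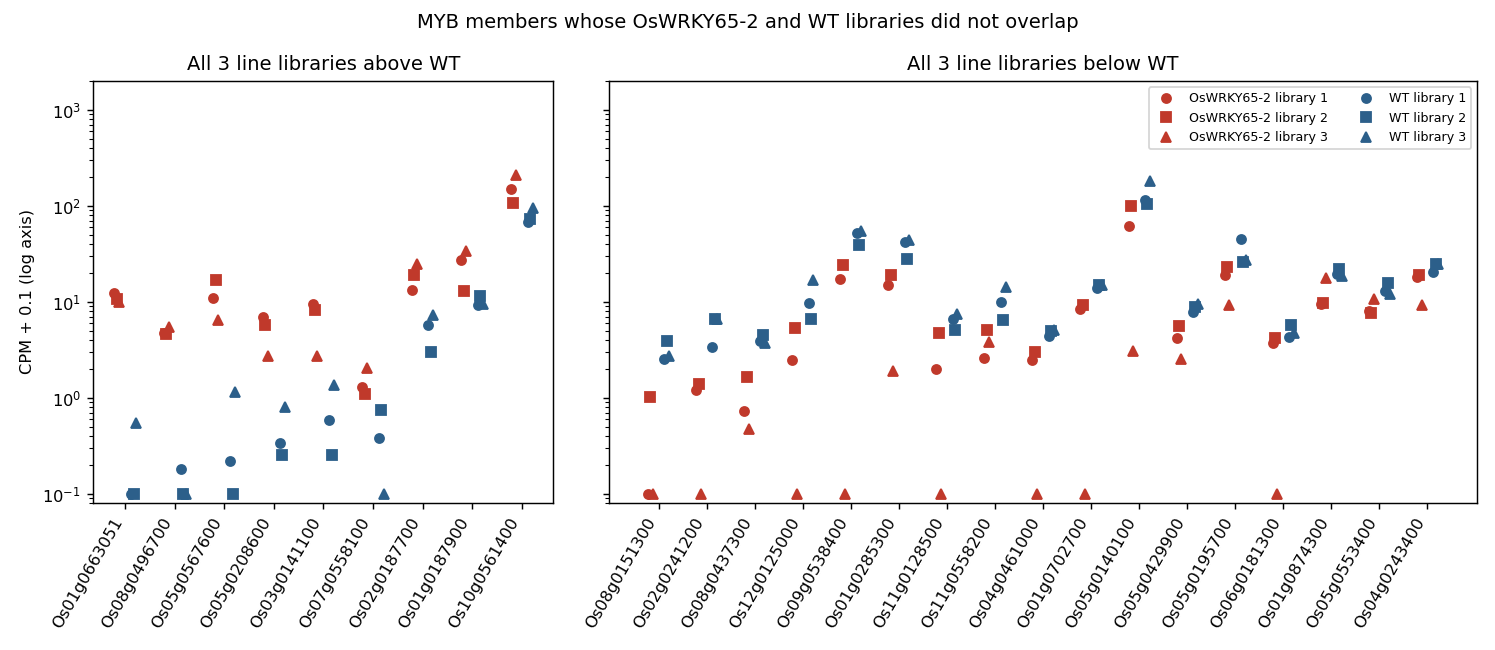
CPM + 0.1 on a log axis for the 9 members with every OsWRKY65-2 library above every WT library (left) and the 17 with every OsWRKY65-2 library below (right), 1 point per library. The 5 SANT or Myb/SANT-like genes sit at the left with WT near 0, and OsWRKY65-2 library 3 (triangles) lies at 0 for 8 of the 17 lower members.

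Among members well expressed in both groups, 3 more were separated upward. Os02g0187700 is annotated as similar to B-Myb, a regulator of cell cycle genes in animals. It had 13.0, 18.8 and 24.7 CPM in OsWRKY65-2, against 5.64, 2.87 and 7.11 CPM in WT, and a log2 fold change of 1.84 ± 0.46. Dividing-cell markers (histone H4 and cyclins A and B, 21 tested) had medians of log2 CPM minus the WT mean of 0.20, 0.84 and -3.24 in OsWRKY65-2, against 0.10, 0.17 and -0.15 in WT, so that OsWRKY65-2 library 3 was high for the B-Myb-like gene and low for the markers; the part of dividing cells in the result was not tested. Os01g0187900 is similar to MYBS2, a protein of the group that binds the sugar-response element of alpha-amylase promoters. It had 27.4, 13.0 and 33.6 CPM in OsWRKY65-2, against 9.09, 11.3 and 9.34 CPM in WT, and a log2 fold change of 1.31 ± 0.40.

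Os10g0561400, annotated only as similar to a Myb transcription factor, was the member of highest level per length, at 152 ± 44.9 TPM in OsWRKY65-2 and 91.5 ± 9.45 TPM in WT (SD, n = 3 each). It had 149, 106 and 208 CPM in OsWRKY65-2, against 67.7, 72.0 and 95.7 CPM in WT. The lowest OsWRKY65-2 library exceeded the highest WT library by little, and the log2 fold change was 0.97 ± 0.31. For all 3 genes edgeR gave an adjusted p of 0.763. DESeq2 called Os02g0187700 (adjusted p 0.00665) and Os01g0187900 (adjusted p 0.0448), and not Os10g0561400. Of the other MYBS2-like members, Os05g0195700 lay below WT, at 18.7, 23.0 and 9.15 CPM in OsWRKY65-2, against 44.8, 25.9 and 27.2 CPM in WT. Os10g0562100 overlapped with WT and had 43.5, 35.3 and 34.7 CPM in OsWRKY65-2, against 34.5, 40.5 and 32.3 CPM in WT. Of 12 genes annotated as alpha-amylases, the enzymes that such proteins control, only 2 were tested, with 0 called and log2 fold changes of 0.43 ± 0.50 for Os04g0403300 and -2.26 ± 1.81 for Os06g0713800.

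Members annotated with cell wall, cellulose, lignin or anthocyanin formation were on the lower side: all 5 had negative log2 fold changes, with a median of -1.61. Among all tested genes 12007 of 23769 were negative, with a median of -0.01. For 3 of the 5 members every OsWRKY65-2 library lay below every WT library, as it did for 10.5% of all tested genes. Os09g0538400, a repressor of lignin synthesis by its annotation, had 17.0, 23.9 and 0 CPM in OsWRKY65-2, against 51.7, 38.7 and 54.3 CPM in WT. Libraries 1 and 2 were below the lowest WT library and library 3 had no read, and the log2 fold change was -1.82 ± 1.47. Os01g0285300, annotated with cellulose synthesis, nitrogen use and secondary walls, had 14.998, 18.8 and 1.82 CPM in OsWRKY65-2, against 41.4, 27.8 and 44.4 CPM in WT. Here too library 3 was far below the other OsWRKY65-2 libraries, and the log2 fold change was -1.67 ± 0.78.

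Os05g0553400, an R2R3 protein annotated with heat tolerance and anthocyanin synthesis, had 7.87, 7.60 and 10.6 CPM in OsWRKY65-2, against 12.8, 15.6 and 12.0 CPM in WT. It was the only one of the 5 in which library 3 was the highest of the OsWRKY65-2 libraries, and its log2 fold change was -0.62 ± 0.30. The remaining pair overlapped with WT. Os04g0594100, annotated with cellulose synthesis in secondary walls, had 1.99, 1.43 and 0 CPM in OsWRKY65-2, against 5.44, 4.19 and 1.34 CPM in WT. Os12g0515300, annotated with secondary wall synthesis, had 0, 1.36 and 0 CPM in OsWRKY65-2, against 0.760, 1.28 and 0.894 CPM in WT. It reached the read minimum in every WT library but not in OsWRKY65-2 libraries 1 and 3, so the choice of members favoured it.

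By edgeR the adjusted p of these 5 members lay between 0.764 and 0.927. Without OsWRKY65-2 library 3 the 5 log2 fold changes were still negative, with a median of -1.07, and the values were -1.23 ± 0.25 for Os09g0538400 and -1.16 ± 0.27 for Os01g0285300, with edgeR adjusted p of 0.191 and 0.230. DESeq2 called both without that library, at adjusted p of 0.00285 and 0.0161. On counts simulated without it, the share of false calls was above the threshold for both tools, and well above it for DESeq2. As that simulation used the spread that edgeR estimated, it cannot decide between the tools here. The 5 cellulose synthase catalytic subunits, enzymes that build the wall polymer, also had 5 negative log2 fold changes, 0 of them called, with a median of -0.90, and -0.37 without library 3. Phenylpropanoid and lignin enzymes lay the other way on all 6 libraries: 26 of the 36 tested were positive, 0 were called, and the median was 0.55, against 0.01 without library 3. Of 25 tested flavonoid enzymes 11 were positive, 0 were called and the median was -0.16, or -0.0092 without library 3. In OsWRKY65-2 library 3 the median log2 CPM minus the WT mean was -3.24 for the dividing-cell markers and -4.29 for the 5 wall members. In libraries 1 and 2 it was 0.20 and 0.84 for the markers, against -1.30 and -0.98 for the wall members. The part of dividing cells in the result was not tested.

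Several members with other roles lay below WT in every OsWRKY65-2 library, none of them called by edgeR. Os12g0125000, an R2R3 protein annotated with leaf development, had 2.36, 5.28 and 0 CPM in OsWRKY65-2, against 9.65, 6.48 and 16.7 CPM in WT, with a log2 fold change of -2.06 ± 1.40. Os11g0128500, similar to a Myb factor, had 1.89, 4.57 and 0 CPM in OsWRKY65-2, against 6.56, 4.98 and 7.35 CPM in WT, with a log2 fold change of -1.51 ± 1.37. Both lie on the ends of chromosomes 11 and 12, which are near-identical copies of each other, so they may share reads.

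Os11g0558200, an R2R3 activator annotated with tolerance to phosphate deficiency, did not rest on library 3. Its CPM was 2.46, 5.03 and 3.69 in OsWRKY65-2, against 9.85, 6.35 and 14.0 in WT. The log2 fold change was -1.41 ± 0.48 on 6 libraries and -1.40 ± 0.48 without library 3, with edgeR adjusted p of 0.763 and 0.368. Os08g0437300, a P-type R2R3 protein, was low throughout, at 0.629, 1.53 and 0.374 CPM in OsWRKY65-2, against 3.76, 4.43 and 3.62 CPM in WT. It was the single member that DESeq2 called lower on 6 libraries (log2 fold change -2.19, adjusted p 0.0304), while edgeR gave -2.11 ± 0.75 and an adjusted p of 0.763.

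Os05g0140100, the member with the second level per length after Os10g0561400 (32.1 ± 32.2 TPM in OsWRKY65-2 and 99.1 ± 20.8 TPM in WT), had 62.1, 99.8 and 2.99 CPM in OsWRKY65-2, against 116, 104 and 181 CPM in WT. Library 2 lay just under the lowest WT library and library 3 near 0, and the log2 fold change was -1.28 ± 1.03, or -0.72 ± 0.31 without library 3. Os01g0702700, similar to Arabidopsis MYB86, had 8.23, 9.24 and 0 CPM in OsWRKY65-2, against 13.7, 14.8 and 14.99 CPM in WT. Both MybHv5-like genes lay below WT: Os05g0429900 had 4.09, 5.49 and 2.41 CPM in OsWRKY65-2, against 7.68, 8.77 and 9.26 CPM in WT, and Os01g0874300 had 9.39, 9.52 and 17.6 CPM in OsWRKY65-2, against 19.3, 21.8 and 18.4 CPM in WT. For Os01g0874300 the log2 fold change was -0.70 ± 0.34 on 6 libraries and -1.06 ± 0.25 without library 3, where DESeq2 called it (adjusted p 0.00580) and edgeR did not (adjusted p 0.226).

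Of the 4 members annotated with development, 3 had negative log2 fold changes, 0 were called and the median was -0.44, or -0.69 without library 3. Os06g0181300, a single MYB protein annotated with anther development, had 3.62, 4.10 and 0 CPM in OsWRKY65-2, against 4.16, 5.65 and 4.63 CPM in WT. Libraries 1 and 2 lay close to WT, and the log2 fold change was -0.88 ± 1.37, or -0.31 ± 0.39 without library 3. The positive one was Os04g0517100, described below with the defence members. Os04g0566600, outside these 4 by its annotation words, is annotated with organ identity and spikelet determinacy, and was higher in library 3 than elsewhere, at 4.98, 2.996 and 16.3 CPM in OsWRKY65-2, against 3.04, 1.62 and 2.68 CPM in WT.

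Among low-level members, Os08g0151300 had 0, 0.927 and 0 CPM in OsWRKY65-2, against 2.40, 3.82 and 2.60 CPM in WT. Os02g0241200, a SHAQKYF protein, had 1.10, 1.28 and 0 CPM in OsWRKY65-2, against 3.28, 6.51 and 6.46 CPM in WT. Both lay below WT in every OsWRKY65-2 library, with log2 fold changes of -2.93 ± 1.69 and -2.64 ± 1.29. Another SHAQKYF gene, Os11g0106100, depended on library 3: it had 0, 0 and 6.42 CPM in OsWRKY65-2, against 1.76, 2.63 and 1.54 CPM in WT, and its log2 fold change was 0.11 ± 2.05 on 6 libraries and -4.73 ± 1.03 without library 3. Os08g0151300 and Os11g0106100 were among 7 members below the read minimum in at least 2 OsWRKY65-2 libraries and at it in every WT library. The choice of members favoured genes of that pattern too, so their values are given as a description.

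**Figure D4:**
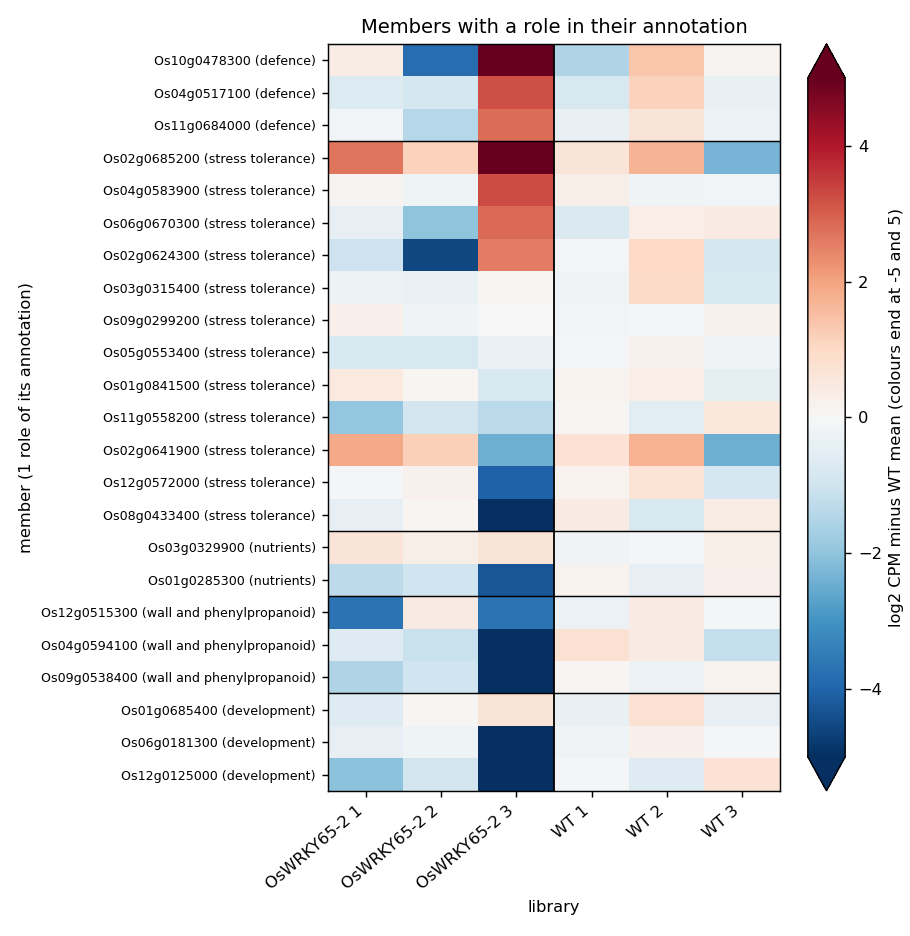
Log2 CPM minus the WT mean (colour, clipped at -5 and 5) of the 23 members with a role word in their annotation (rows, 1 role shown for each) in the 6 libraries (columns, OsWRKY65-2 left of the black line). The 3 defence members and Os02g0685200, Os04g0583900 and Os06g0670300 are high in OsWRKY65-2 library 3 alone of the OsWRKY65-2 libraries or by far the most there. The 3 members shown under the wall role are below WT in the same library. Os01g0285300 and Os05g0553400, counted with the wall members in the text, are shown under other roles and are below WT there too.

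The 3 members annotated with defence were high in OsWRKY65-2 library 3 and not in the other OsWRKY65-2 libraries. Os10g0478300, a protein of the SG2 subgroup annotated with resistance to fungal and bacterial pathogens, had 1.42, 0 and 47.2 CPM in OsWRKY65-2, against 0.3202, 2.87 and 1.18 CPM in WT. Os04g0517100, of the same subgroup and annotated with cold tolerance and pathogen resistance, had 11.1, 9.67 and 166 CPM in OsWRKY65-2, against 10.05, 39.8 and 13.8 CPM in WT. Os11g0684000, annotated with jasmonate-dependent defence and as a negative regulator of blight resistance, had 9.23, 3.75 and 70.6 CPM in OsWRKY65-2, against 7.89, 15.8 and 8.37 CPM in WT. In each of them WT library 2 was the highest of the WT libraries. The log2 fold changes were 3.40, 1.55 and 1.37 on 6 libraries, and -0.98, -1.03 and -0.72 without OsWRKY65-2 library 3, so that the direction of all 3 rested on 1 library. None was called by edgeR on 6 libraries, with adjusted p of 0.793, 0.830 and 0.824.

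The 13 members annotated with stress tolerance had a median log2 fold change of 0.03, or -0.24 without library 3, and 7 of the 13 were positive. Os02g0685200, an activator of stress and rhythm responsive genes by its annotation, had 2.52, 0.820 and 31.6 CPM in OsWRKY65-2, against 0.560, 1.25 and 0 CPM in WT. Os04g0583900, annotated with abscisic acid and drought responses, had 6.61, 5.17 and 58.0 CPM in OsWRKY65-2, against 7.44, 5.38 and 5.48 CPM in WT. Os06g0670300, annotated with plant height and cadmium tolerance, had 3.41, 1.07 and 32.8 CPM in OsWRKY65-2, against 2.72, 5.68 and 6.05 CPM in WT. All 3 stood out in OsWRKY65-2 library 3 alone, and the groups overlapped in the other libraries. Other stress members were low in the same library. Os08g0433400, annotated with the response to salt, had 18.98, 26.9 and 0 CPM in OsWRKY65-2, against 34.1, 14.7 and 32.5 CPM in WT. Os12g0572000, annotated with growth and salt tolerance, had 18.2, 23.0 and 1.12 CPM in OsWRKY65-2, against 22.1, 31.4 and 10.9 CPM in WT. In both the groups overlapped, and without library 3 the log2 fold changes of -0.82 and -0.60 were -0.24 and -0.057. Library 3 was at least 3 times the highest other library for 8 members (7.62%, against 4.87% of all tested genes), and these 6 defence and stress members were among them.

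Phosphate and nitrogen are named in the annotation of 4 members, which differed in direction. Os03g0329900, the MYB-CC protein of phosphate starvation signalling, had 52.9, 40.9 and 52.4 CPM in OsWRKY65-2, against 29.4, 31.0 and 41.6 CPM in WT, with a log2 fold change of 0.52 ± 0.24 and an edgeR adjusted p of 0.764. Only the lowest OsWRKY65-2 library lay below the highest WT library. Os02g0624300, an R2R3 protein annotated with cold tolerance and phosphate homeostasis, had 0.839, 0 and 10.9 CPM in OsWRKY65-2, against 1.68, 3.64 and 0.934 CPM in WT, and its log2 fold change of 0.87 turned to -2.15 without library 3. Os11g0558200 and Os01g0285300, described above, were lower. Of 24 tested phosphate starvation genes 15 were positive, 0 were called in either direction, and the median was 0.31, or -0.13 without library 3.

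The 6 members of highest level per length did not share a direction. After Os10g0561400 and Os05g0140100 came Os08g0549000, a homologue of Arabidopsis GL1, which controls leaf hair formation there, with 48.6 ± 15.7 TPM in OsWRKY65-2 and 69.0 ± 14.8 TPM in WT (SD, n = 3 each). Os01g0708000, a telomere repeat-binding factor, had 46.6 ± 8.06 TPM in OsWRKY65-2 and 48.4 ± 1.28 TPM in WT, and Os10g0562100 had 44.6 ± 5.40 TPM in OsWRKY65-2 and 50.3 ± 8.71 TPM in WT. In these 3 genes the groups overlapped, and the log2 fold changes in CPM were -0.25 ± 0.30, 0.18 ± 0.22 and 0.08 ± 0.21. Without OsWRKY65-2 library 3, Os08g0549000 lay below WT in both remaining libraries, with a log2 fold change of -0.53 ± 0.23 and an edgeR adjusted p of 0.474. Os09g0538400, the lignin repressor, was the sixth, with 17.8 ± 16.4 TPM in OsWRKY65-2 and 72.8 ± 11.1 TPM in WT.

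At the read minimum the values were low in both groups. Just inside it, Os06g0112700 had 0, 12 and 0 reads in OsWRKY65-2, against 13, 23 and 10 reads in WT, and Os01g0128000 had 13, 0 and 67 reads in OsWRKY65-2, against 9, 42 and 0 reads in WT. Just outside it, Os01g0298400 had 0, 0 and 87 reads in OsWRKY65-2, against 8, 24 and 4 reads in WT, and Os07g0688200 had 4, 2 and 8 reads in OsWRKY65-2, against 31, 24 and 0 reads in WT.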

How the data were processed

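Per the file headers, the table holds read counts, FPKM and TPM for every gene and library under RAP-DB identifiers. The submitters' processing notes list StringTie 2.1.3b, HISAT2 2.1.0, bcl2fastq 2.20.0 and Trimmomatic, with IRGSP-1.0 as genome build. For their options, strand use and annotation release, the sources used here give nothing, so overlapping, antisense and near-identical genes cannot be told apart. The deposited counts are estimated counts, already whole, so that rounding changed no value. The TPM deposited by the authors sum to 1000000 per library and were used for levels between genes. The FPKM deposited by the authors were not used.

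Library columns of OsWRKY65-2 bear its name and a replicate number. WT is named in no column: the other 3 have an unexplained prefix and a number, and were read as WT, the group left over, with that number as the replicate. Every direction given depends on this reading.

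The members and gene lists were chosen with earlier results of these data known, and text patterns of the related lists were corrected for accidental matches after the annotations were read. Tests used edgeR 4.0.16 (R 4.3.3): normalization by TMM, low counts removed by filterByExpr (minimum count 10), the robust quasi-likelihood test with a prior count of 2, and Benjamini-Hochberg adjustment over all tested genes, called at an adjusted p under 0.05. All 105 members were tested, of which 63 had 10 reads or more in all 6 libraries. The SE is the absolute log2 fold change divided by the square root of F. CPM used TMM factors, and 3 reads correspond to 0.0917 to 0.160 CPM. Alternatives were other size factors, no filter and a minimum count of 50, DESeq2 1.42.0, limma 3.58.1 (voom, voom with sample weights, trend on log2 TPM), a replicate block and leaving out each library. DESeq2 with its own filter was added after seeing the data. Scripts were tested on simulated data, where the share of false calls was below the threshold for edgeR on 6 libraries, above it without OsWRKY65-2 replicate 3, and well above it for DESeq2 in both.

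Named by rule were members called in either fit, the 8 largest changes each way among members with 5 CPM or more and separated groups, the 6 of highest TPM, the 3 of smallest p per role and the 2 genes on each side of the read minimum. Another 20 were added after their values were seen, among them Os08g0496700, Os05g0208600 and Os03g0141100. The exact permutation tests were two-sided and run on genes with separated groups, for which a p of 0.1 was fixed in advance. Across all tested genes, r was between -0.0581 and 0.0498 for same-numbered libraries and between -0.0883 and 0.0928 for other OsWRKY65-2 and WT pairs. These values alone cannot show whether libraries were handled in pairs.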

Additional observations from a re-analysis of the deposited data

How the results depend on the processing

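Calls depended on the tool. Members called higher and lower were 0 and 0 by edgeR under other size factors and filters and on leaving out any 1 library, and by limma, but 7 and 1 by DESeq2, 6 and 0 by DESeq2 with its own filter (added after seeing the data), and 4 and 6 by DESeq2 without OsWRKY65-2 replicate 3. Over all genes the counts were 419 and 303, 181 and 105, and 274 and 426 in the same order, 2 higher without a filter and in each limma-trend fit, 6 and 1 by voom with sample weights, 5 and 3 by voom without OsWRKY65-2 replicate 3, and between 0 and 13 higher and 0 and 6 lower on leaving out 1 library. The cause was not tested. With the replicate block, edgeR called 0 members and 0 genes, and 7 genes higher and 1 lower without OsWRKY65-2 replicate 3.

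The members' median log2 fold change was -0.19 and stayed negative throughout: -0.11 at a minimum count of 50, -0.36 by limma-voom and with the replicate block, -0.42 and -0.62 by limma-trend with TPM pseudocounts of 1 and 0.1, -0.25 with the block and without OsWRKY65-2 replicate 3, and -0.28 to -0.15 on leaving out 1 library.

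Of 45 named members under 19 alternatives, 12 turned direction in at least 1. Leaving out 1 library gave ranges of -0.98 to 4.29 for Os10g0478300, -0.72 to 1.91 for Os11g0684000, -1.03 to 2.39 for Os04g0517100, -0.60 to 2.51 for Os01g0128000, -0.052 to 2.40 for Os04g0583900, -2.15 to 1.53 for Os02g0624300, -4.73 to 0.70 for Os11g0106100, -1.09 to 1.91 for Os06g0670300 and -0.036 to 0.16 for Os10g0562100. Without OsWRKY65-2 replicate 3, DESeq2, voom and the block gave -1.07, -3.33 and -1.50 for Os10g0478300, -0.73, -0.93 and -0.91 for Os11g0684000, -1.04, -0.85 and -0.96 for Os04g0517100, -0.70, -1.49 and -1.57 for Os01g0128000, -0.063, -0.061 and -0.11 for Os04g0583900, -2.35, -4.37 and -3.08 for Os02g0624300, -7.97, -6.55 and -4.87 for Os11g0106100, and -1.13, -1.47 and -0.999 for Os06g0670300. Os12g0572000 turned to 0.044 by voom and Os08g0433400 to 0.014 with the block. On 6 libraries, voom gave -0.72 for Os10g0478300, -2.27 for Os02g0624300, -4.01 for Os11g0106100 and -0.35 for Os06g0670300, and sample weights gave -0.57, -2.24, -6.07 and -0.56 for these and -0.31 for Os11g0684000 and -0.47 for Os04g0517100. The replicate block gave -0.90 for Os02g0624300 and -3.02 for Os11g0106100. Limma-trend with pseudocounts of 1 and 0.1 gave -0.069 and -0.070 for Os01g0708000, -0.16 and -0.17 for Os10g0562100, -0.31 and -1.28 for Os02g0624300, and -0.86 and -2.71 for Os11g0106100, and -0.10 for Os06g0670300 with 0.1.

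The depth of single libraries limits members near 0.0917 to 0.160 CPM, where 3 reads lie.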
